A study of Homo sapiens with 6 samples.

Results

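Transcripts of 9 genes of the p53 network were measured in DU145 cells after knockdown of RCC2. They were MDM2, MDM4, CDKN1A, GADD45A, DDB2, TP53INP1, ZMAT3, SESN1 and RRM2B, taken by gene name from count tables that hold 50868 genes. All 9 have a row and all 9 passed the filter on low counts, among 16536 genes tested. DU145 is a human prostate cancer line that is known to carry mutant p53. The siCtrl group is 3 libraries labelled RCC2 wild type, and the siRCC2 group is 3 libraries labelled RCC2 knockdown. No siRNA sequence, dose or time is given in the labels. They also leave unsaid whether replicates were grown separately, so p-values here reflect library-to-library spread alone, possibly technical. The title of the series names growth and migration of prostate cancer cells as its subject.

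The tumour suppressor p53 is a transcription factor that is activated by DNA damage and other stress. MDM2 and MDM4 bind p53 and hold it back, and MDM2, itself a p53 target, marks p53 for breakdown, which closes a feedback loop. Active p53 induces genes that stop the cell cycle (CDKN1A, GADD45A), repair DNA or supply its building blocks (DDB2, RRM2B) and act in cell stress, autophagy or RNA stability (TP53INP1, SESN1, ZMAT3). Many of these genes also answer to other factors, so their transcripts are made in cells without normal p53.

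RCC2, the targeted gene, had 194 ± 3.84 CPM in siCtrl and 57.2 ± 2.25 CPM in siRCC2 (CPM, counts scaled to library size, SD, n = 3 libraries each), 3.40-fold lower. Total counts were between 17377191 and 19895431. In a principal component analysis the first component (62.3% of the variance) separated the groups, and on the second (16.4%) siRCC2 replicate 1 stood at 41.5, against -13.3 and -35.2 for the other siRCC2 libraries. Results on the 9 genes are given without it where it changes a call. Of 6 epithelial markers 3 rose and 2 fell, against 2 and 3 without siRCC2 replicate 1, and 2 and 1 without siCtrl replicate 1 or 2. Their summed level was 4764 to 4997 CPM in siCtrl and 3062 to 3667 CPM in siRCC2, most of it KRT7, which fell from 3588 to 1636 CPM, while KRT8 rose from 462 to 729 CPM and KRT18 from 318 to 452 CPM. Leukocyte markers summed to at most 0.0992 CPM. The part of these shifts in the results below was not tested.

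Among the 9 genes, 5 fell after RCC2 knockdown and 0 rose. GADD45A, DDB2, RRM2B, TP53INP1 and SESN1 passed the test (edgeR quasi-likelihood test, adjusted p under 0.05 over all tested genes), and in each of them the 3 siRCC2 libraries lay below the 3 siCtrl libraries. CDKN1A, MDM2, MDM4 and ZMAT3 did not pass, and their groups overlapped. Knockdown moved much of the transcriptome: 41.8% of tested genes changed, 20.7% were higher and 21.1% lower, and the groups did not overlap in 55.4% of genes, with siRCC2 below siCtrl in 28.5% and above it in 26.9%. The median log2 fold change of the 9 genes was -0.61, against -0.02 over all tested genes. Because the 9 genes were chosen with earlier results of these data known, these contrasts describe them and are not a test. Within siRCC2, replicate 1 was the lowest library for 5 of the 9 genes and the highest for the other 4, where 39.7% of all tested genes had it lowest and 40.2% highest. Without siCtrl replicate 3 only GADD45A, DDB2 and TP53INP1 passed, where 15.3% of all genes tested in that fit were lower. Without siRCC2 replicate 1, 6 genes passed downward, with MDM4 added, and 1 upward, ZMAT3 (22.9% and 21.6% of all genes tested in that fit). In bulk RNA, fewer cells that make a transcript and less of it per cell cannot be told apart.

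**Figure D1:**
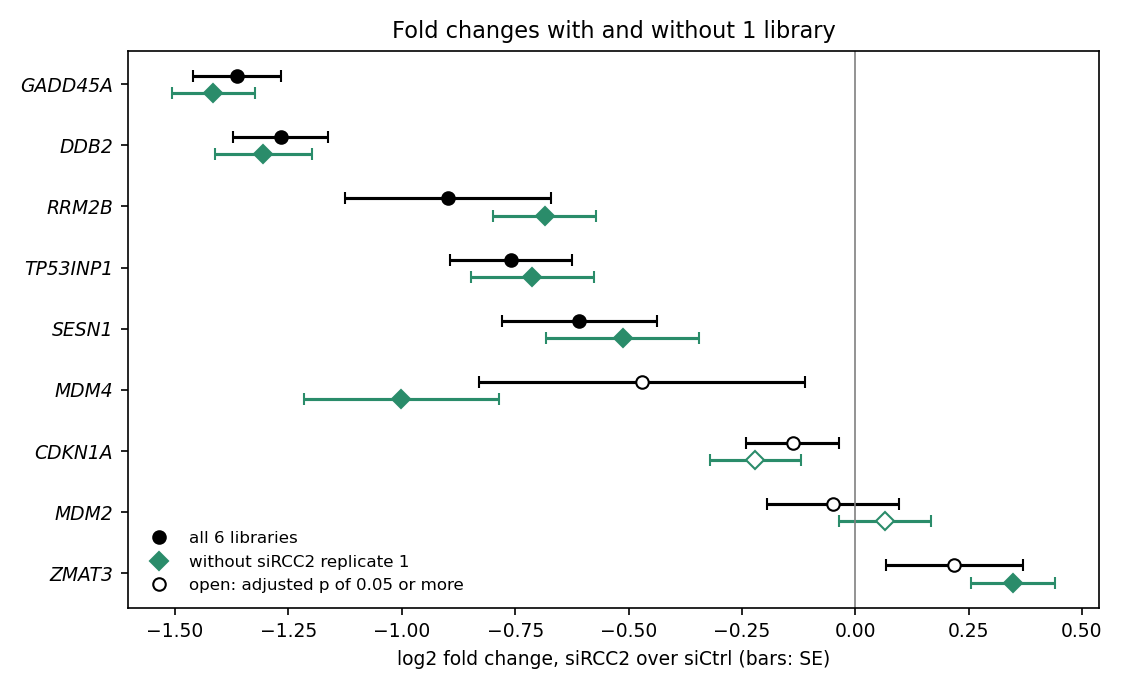
Log2 fold change of siRCC2 over siCtrl (x axis, bars are SE) for each of the 9 genes, with all 6 libraries (circles) and without siRCC2 replicate 1 (diamonds), filled where the adjusted p was under 0.05. GADD45A (-1.36) and DDB2 (-1.27) lie farthest to the left in both fits, and MDM4 moves from -0.47 to -1.0 when the library is left out.

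The genes differed widely in abundance. Levels between genes are compared as CPM per kilobase of annotated exon. In siCtrl, CDKN1A was the highest at 50.4 ± 4.27 CPM per kilobase and GADD45A the second at 22.6 ± 0.828. DDB2 (5.09 ± 0.357), RRM2B (4.39 ± 0.333) and ZMAT3 (4.07 ± 0.293) followed, and the library values of DDB2 and RRM2B overlapped, as did those of RRM2B and ZMAT3. TP53INP1 was at 2.81 ± 0.248. MDM2 (1.55 ± 0.0988) and MDM4 (1.23 ± 0.299) overlapped, and SESN1 was the lowest at 0.797 ± 0.0273 CPM per kilobase. In siRCC2, CDKN1A (45.8 ± 4.87) and GADD45A (8.77 ± 0.694) were again the highest. DDB2 went from the third place to the fifth, at 2.11 ± 0.0993, where it overlapped RRM2B (2.35 ± 0.730), and ZMAT3 (4.73 ± 0.921) took the third. Scaled by the longest transcript instead, DDB2 had 8.03 CPM per kilobase in siCtrl and 3.34 in siRCC2, where it was the fourth, above RRM2B.

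**Figure D2:**
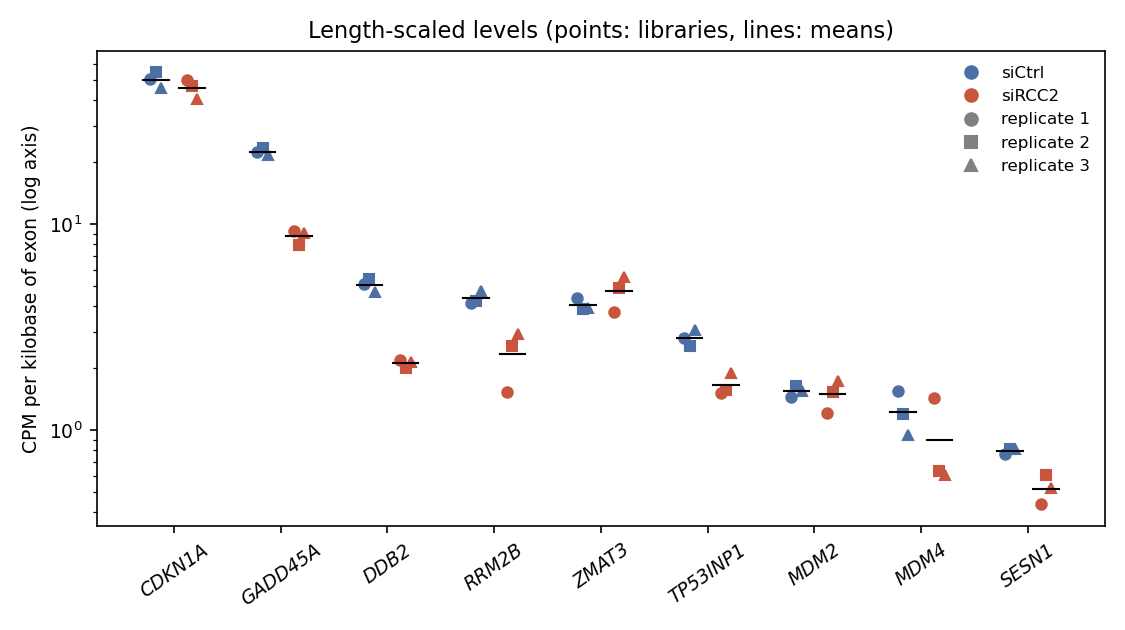
CPM per kilobase of exon (log axis) of the 9 genes, ordered by the siCtrl mean. Points are the 6 libraries and lines the group means: CDKN1A lies near 50.4 in siCtrl and SESN1 near 0.797.

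The 2 inhibitors of p53 did not pass the test. MDM2 (ENSG00000135679, GRCh38 chromosome 12, 68808172 to 68850686, plus strand), the ubiquitin ligase for p53, had 19.2, 21.8 and 20.6 CPM in siCtrl replicates 1 to 3 and 16.1, 20.5 and 23.0 CPM in siRCC2 replicates 1 to 3. The siRCC2 libraries lay on both sides of the siCtrl range. The log2 fold change was -0.05 ± 0.15 (SE; edgeR adjusted p = 0.814), and without siRCC2 replicate 1 it was 0.066 ± 0.10 (adjusted p = 0.634). MDM2 overlaps, in its exons, the gene of carboxypeptidase M on the opposite strand. That gene rose to 170 ± 20.1 CPM, from 44.5 ± 1.60 CPM in siCtrl (1.93 ± 0.10 on the log2 scale, adjusted p = 5.21e-05). Since no source used here says whether strand was kept, reads of the shared stretch cannot be assigned to either, and their part in the MDM2 value was not tested.

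MDM2 has an inner promoter through which p53 acts on it, which is why its sequence is shown. RefSeq windows of 250 bases before to 50 after a transcript start (GRCh38.p14) were at hand for 6 of the 9 genes, 13 windows in all, and those of GADD45A, TP53INP1 and RRM2B were not analysed here. They were searched for the p53 consensus element, a pair of 10-base blocks that reads the same on both strands, with a gap of 0 or 1 base between the blocks. In the window at an inner start of MDM2 (chr12:68808767-68809066, plus strand) the best pair had 2 mismatches and began 94 bases upstream of the start. The window of another inner start (chr12:68808774-68809073) had the same best pair, 101 bases upstream of that start. At most 2 mismatches were found in 1.34% of 35116 such windows of all genes. Capitals mark the best pair only. A further pair within the limit of 3 mismatches (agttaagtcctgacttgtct) lies downstream of it and is left in small letters.
MDM2 inner promoter: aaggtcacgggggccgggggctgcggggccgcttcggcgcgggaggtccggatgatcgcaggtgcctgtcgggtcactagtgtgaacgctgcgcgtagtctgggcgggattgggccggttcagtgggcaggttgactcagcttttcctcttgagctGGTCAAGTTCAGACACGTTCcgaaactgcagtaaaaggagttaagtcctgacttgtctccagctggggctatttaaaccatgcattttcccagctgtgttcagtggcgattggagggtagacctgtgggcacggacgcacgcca
The windows at the outer MDM2 starts and those of MDM4, CDKN1A and ZMAT3 held no pair with 3 mismatches or fewer. This says only that these letters are not within these windows.

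MDM4 (ENSG00000198625, chromosome 1, 204516379 to 204558120, plus strand), a relative of MDM2 that binds p53 without degrading it alone, had 17.0, 13.2 and 10.5 CPM in siCtrl and 15.8, 6.96 and 6.71 CPM in siRCC2 replicates 1 to 3. Replicate 1 of siRCC2 lay within the siCtrl range and the other siRCC2 libraries below it. The log2 fold change was -0.47 ± 0.36 (adjusted p = 0.332). Without siRCC2 replicate 1 it was -1.0 ± 0.22 (adjusted p = 0.0104), so this library decides the call. MDM4 also had a wide spread in siCtrl, with an SD of 3.29 CPM on a mean of 13.6. The log2 ratio of MDM2 to MDM4 counts was 0.62 ± 0.41 in siCtrl and 1.12 ± 0.95 in siRCC2, with 0.03 in siRCC2 replicate 1 and 1.55 and 1.77 in the others. The groups overlapped (difference 0.49, two-sided exact permutation p = 0.5), and the difference was 1.04 without siRCC2 replicate 1.

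**Figure D3:**
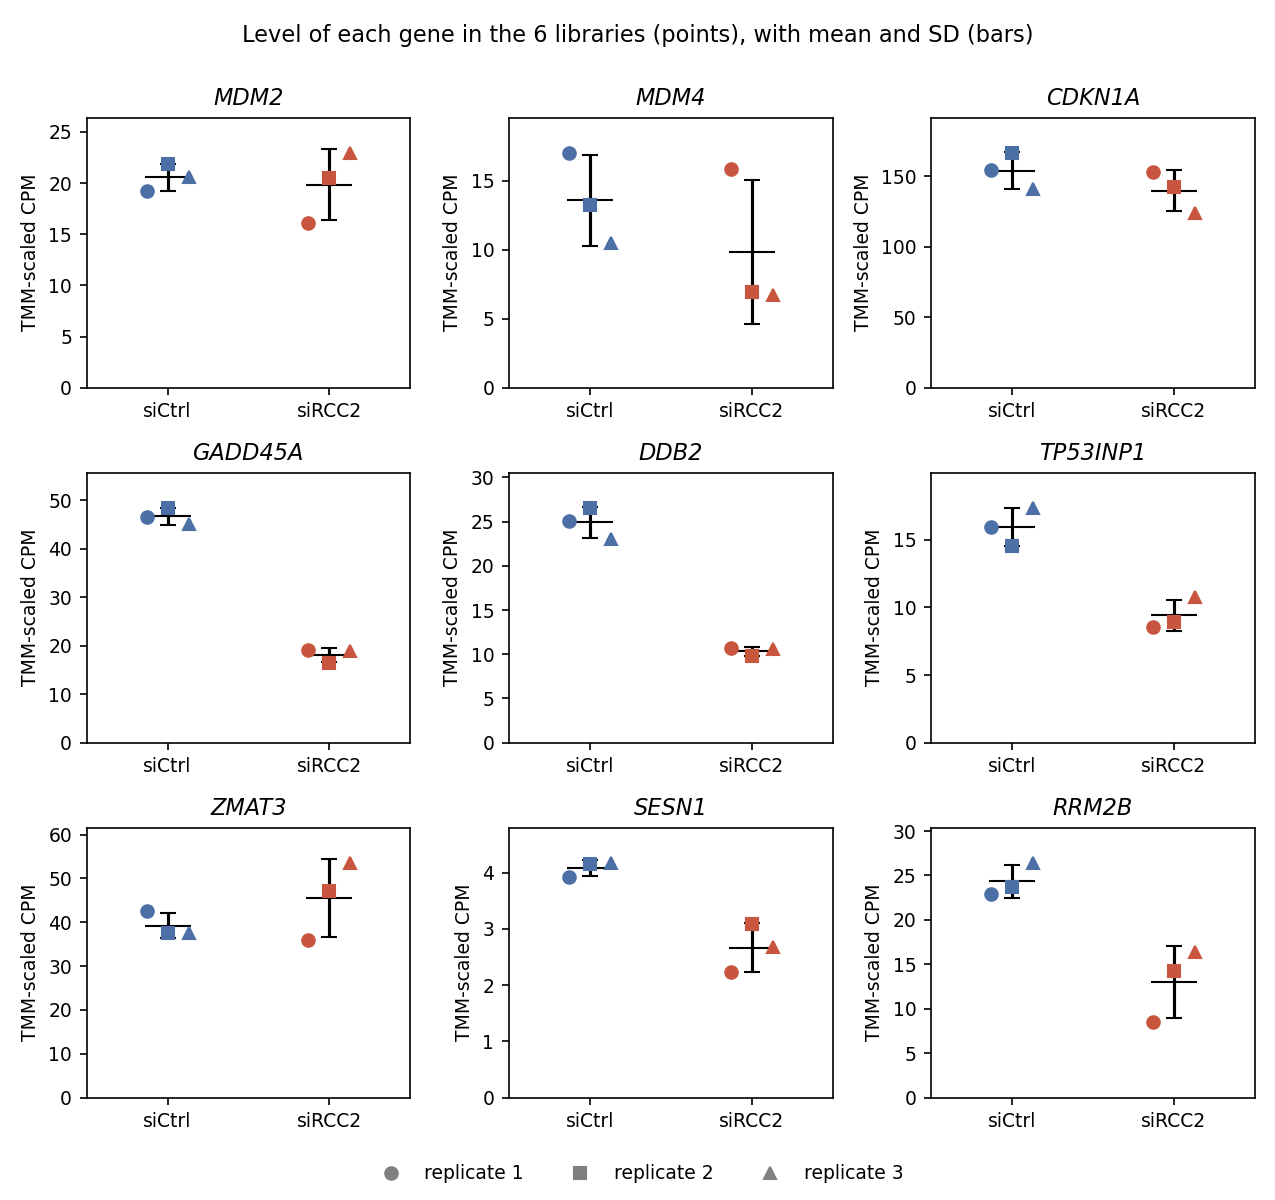
TMM-scaled CPM of each of the 9 genes (y axes start at 0) in siCtrl and siRCC2, with 1 point per library and bars for mean and SD, n = 3. GADD45A and DDB2 show tight, separate groups, and siRCC2 replicate 1 (circle) stands apart for MDM4 and RRM2B.

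Of the 2 arrest genes, GADD45A fell and CDKN1A did not pass. CDKN1A (ENSG00000124762, chromosome 6, 36676460 to 36687339, plus strand) encodes p21, the inhibitor of cyclin-dependent kinases that carries much of the p53-driven arrest. Its levels were 154, 167 and 141 CPM in siCtrl and 153, 143 and 124 CPM in siRCC2. The groups overlapped, with 1 siRCC2 library below the siCtrl range, and the log2 fold change was -0.14 ± 0.10 (adjusted p = 0.319). Without siRCC2 replicate 1 it was -0.22 ± 0.10 (adjusted p = 0.118). Of the other inhibitors of this family, CDKN1B, which encodes p27, rose from 51.0 ± 2.23 to 68.7 ± 6.02 CPM (0.43 ± 0.09, adjusted p = 0.00842). CDKN1C, which encodes p57, was low, with 4.09 ± 0.454 and 2.93 ± 0.517 CPM, and did not pass (adjusted p = 0.0800, and 0.0411 without siRCC2 replicate 1).

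GADD45A (ENSG00000116717, chromosome 1, 67685061 to 67688338, plus strand) encodes a small stress protein that binds p21 and the mitotic kinase complex. It had 46.5, 48.4 and 45.0 CPM in siCtrl and 19.1, 16.5 and 18.8 CPM in siRCC2. The groups were far apart, with little spread in either. GADD45A thus changed by -1.36 ± 0.10 on the log2 scale (edgeR adjusted p = 0.000110), a level 2.57-fold lower. Of all tested genes, 7.19% passed the test and were at least 2-fold lower. With each library left out in turn the log2 fold change of GADD45A stayed between -1.42 and -1.28. Its relatives GADD45B and GADD45G encode stress proteins of the same family. GADD45B was at 148, 137 and 153 CPM in siCtrl and at 200.2, 109 and 114 CPM in siRCC2, where replicate 1 was the highest of the 6 libraries and the others the lowest. It did not pass with all libraries (-0.05 ± 0.23, adjusted p = 0.874) but did without siRCC2 replicate 1 (-0.40 ± 0.07, adjusted p = 0.00511). GADD45G rose from 6.50 ± 0.449 to 9.24 ± 1.35 CPM (0.51 ± 0.15, adjusted p = 0.0298), a call lost without siRCC2 replicate 1 (0.0553) and without each siCtrl library.

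Both genes of DNA repair and supply fell. DDB2 (ENSG00000134574, chromosome 11, 47214465 to 47239240, plus strand) encodes the subunit that finds ultraviolet damage for excision repair. It had 25.1, 26.6 and 23.1 CPM in siCtrl and 10.7, 9.79 and 10.5 CPM in siRCC2. The siRCC2 libraries differed by less than 1 CPM and all lay far below the siCtrl range. DDB2 changed by -1.27 ± 0.11 on the log2 scale (adjusted p = 0.000202), a level 2.41-fold lower, and it stayed between -1.32 and -1.21 with each library left out in turn. Its partner DDB1, an adaptor of ubiquitin ligases, moved the other way, from 423 ± 26.4 to 530 ± 38.1 CPM (0.32 ± 0.08, adjusted p = 0.0157). The DDB1 call was lost without siCtrl replicate 2 or 3 or siRCC2 replicate 2 (highest adjusted p 0.0872).

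Among the 6 genes with promoter windows, DDB2 is the one with an exact p53 consensus element in a window. In the window at its inner start (chr11:47214724-47215023, plus strand) the pair of blocks had 0 mismatches with a gap of 1 base and began 5 bases downstream of the start. An exact pair was found in 7 of 35116 windows (0.0199%). Capitals mark the blocks, and the small letter between them is the gap.
DDB2 inner promoter: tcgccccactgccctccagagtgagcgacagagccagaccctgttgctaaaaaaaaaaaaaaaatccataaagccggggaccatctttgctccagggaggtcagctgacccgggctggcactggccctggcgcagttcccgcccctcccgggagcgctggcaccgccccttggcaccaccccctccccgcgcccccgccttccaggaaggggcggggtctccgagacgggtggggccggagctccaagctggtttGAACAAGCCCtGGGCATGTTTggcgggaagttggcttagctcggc
The match describes the sequence, and whether p53 or another factor binds it in these cells was not tested.

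RRM2B (ENSG00000048392, chromosome 8, 102204502 to 102239118, minus strand) encodes the p53-induced small subunit of ribonucleotide reductase, which makes deoxynucleotides outside S phase. It had 22.9, 23.7 and 26.4 CPM in siCtrl and 8.53, 14.2 and 16.4 CPM in siRCC2. All siRCC2 libraries were lower than all siCtrl libraries, and replicate 1 was the lowest. RRM2B changed by -0.90 ± 0.23 on the log2 scale (adjusted p = 0.0174), and without siRCC2 replicate 1 it was -0.68 ± 0.11 (adjusted p = 0.00377). The call was lost without siCtrl replicate 3 (-0.84, adjusted p = 0.0594). The S-phase small subunit RRM2 was at 65.3 ± 1.44 CPM in siCtrl and 65.3 ± 1.26 CPM in siRCC2 (-0.00045 ± 0.07, adjusted p = 0.996), and the large subunit RRM1 did not pass (0.08 ± 0.11, adjusted p = 0.599). The log2 ratio of RRM2B to RRM2 counts was -1.50, -1.50 and -1.28 in siCtrl and -2.91, -2.23 and -1.99 in siRCC2. The groups did not overlap, and the two-sided exact permutation p was 0.1, the smallest that 3 against 3 libraries can give.

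**Figure D4:**
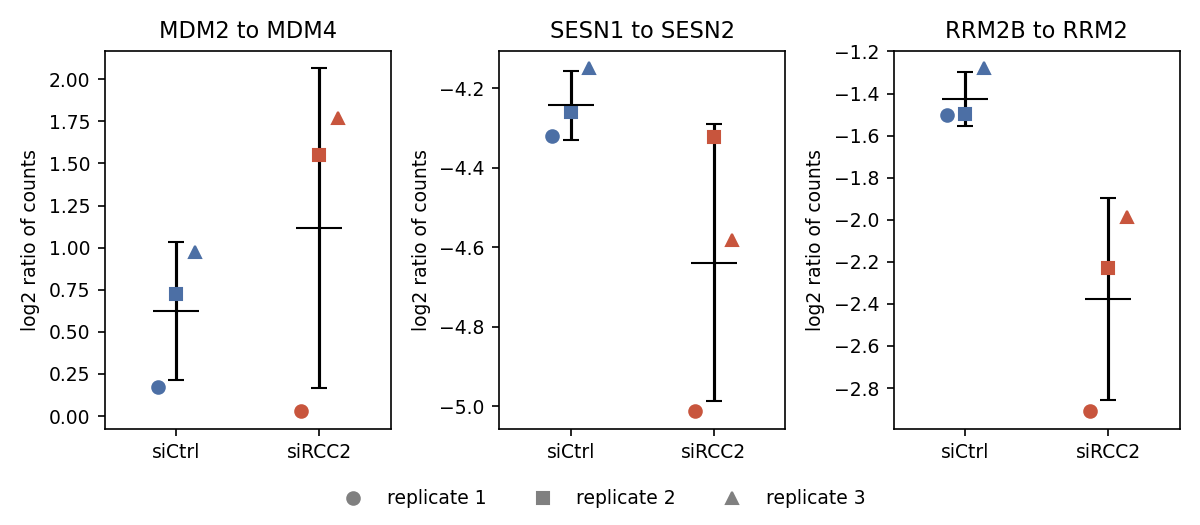
Log2 ratio of the counts of paired genes in each library (points), with mean and SD (bars), n = 3 per group; the axes do not start at 0. RRM2B to RRM2 is lower in every siRCC2 library (mean -2.37, against -1.43 in siCtrl), and MDM2 to MDM4 overlaps between the groups.

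Of the 3 genes of stress and RNA control, TP53INP1 and SESN1 fell and ZMAT3 did not pass. TP53INP1 (ENSG00000164938, chromosome 8, 94925972 to 94949411, minus strand) encodes a nuclear protein that aids p53-driven death and autophagy. It had 15.9, 14.6 and 17.4 CPM in siCtrl and 8.59, 8.91 and 10.7 CPM in siRCC2. The groups were apart, and the log2 fold change was -0.76 ± 0.13 (adjusted p = 0.00416), a level 1.69-fold lower. Its relative TP53INP2, an autophagy factor, rose from 49.6 ± 1.49 to 76.3 ± 4.63 CPM (0.62 ± 0.08, adjusted p = 0.00102).

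SESN1 (ENSG00000080546, chromosome 6, 108986437 to 109094819, minus strand) encodes sestrin 1, which restrains mTORC1 when amino acids or redox balance fail. It was the least abundant of the 9 genes, with 79, 77 and 81 counts in siCtrl and 37, 60 and 51 counts in siRCC2. These are 3.92, 4.15 and 4.17 CPM against 2.24, 3.09 and 2.67 CPM, with every siRCC2 library lower. SESN1 had a log2 fold change of -0.61 ± 0.17 (adjusted p = 0.0266). The call was lost without any 1 siCtrl library or without siRCC2 replicate 3 (adjusted p from 0.0585 to 0.0768), and by DESeq2 (adjusted p = 0.0626). SESN2, the sestrin that is also induced by amino acid stress, had 77.7 ± 2.90 and 66.7 ± 5.72 CPM and did not pass (-0.22 ± 0.09, adjusted p = 0.0781), but did without siRCC2 replicate 1 (-0.31 ± 0.07, adjusted p = 0.0117). SESN3, a target of FOXO factors, had 29.7 ± 1.86 and 46.5 ± 14.9 CPM (0.65 ± 0.23, adjusted p = 0.0550) and passed upward without siRCC2 replicate 1 (0.86 ± 0.11, adjusted p = 0.00158). The log2 ratio of SESN1 to SESN2 counts was -4.24 ± 0.09 in siCtrl and -4.64 ± 0.35 in siRCC2 (two-sided exact permutation p = 0.1). The groups touched without crossing: siRCC2 replicate 2 was at -4.324 and siCtrl replicate 1 at -4.320, and the difference of -0.40 was -0.21 without siRCC2 replicate 1.

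An inner transcript start of SESN1 also held a p53 consensus pair, shown for comparison with DDB2. In that window (chr6:109008939-109009238, minus strand) the pair had 3 mismatches and no gap and began 49 bases upstream of the start, with its first block an exact match. At most 3 mismatches were found in 9.75% of all windows. The other windows of SESN1 and the other window of DDB2 held no pair with 3 mismatches or fewer. Capitals mark the pair.
SESN1 inner promoter: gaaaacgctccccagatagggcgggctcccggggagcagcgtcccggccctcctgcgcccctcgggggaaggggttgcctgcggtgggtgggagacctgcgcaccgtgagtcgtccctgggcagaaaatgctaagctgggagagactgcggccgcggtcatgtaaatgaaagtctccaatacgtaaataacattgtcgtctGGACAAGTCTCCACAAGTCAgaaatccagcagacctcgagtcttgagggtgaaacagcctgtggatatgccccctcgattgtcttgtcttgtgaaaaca

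ZMAT3 (ENSG00000172667, chromosome 3, 179017223 to 179072279, minus strand) encodes an RNA-binding zinc finger protein that acts in the p53 pathway. It had 42.5, 37.5 and 37.7 CPM in siCtrl and 36.0, 47.2 and 53.6 CPM in siRCC2. Replicate 1 of siRCC2 was the lowest of the 6 libraries and the other siRCC2 libraries the highest. ZMAT3 had a log2 fold change of 0.22 ± 0.15 (adjusted p = 0.282), against 0.35 ± 0.09 without siRCC2 replicate 1 (adjusted p = 0.0232), where it passed upward.

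Other genes of the pathway were counted by role, past an adjusted p of 0.05, beside the 41.8% of all genes. The call differed in direction from list to list, and no difference between lists was tested. Of the 10 family partners above, 4 rose and 0 fell (median 0.20), with 4 up and 3 down without siRCC2 replicate 1 and 2 up without siCtrl replicate 2 or 3. Of 16 tested regulators of p53, 1 rose and 2 fell (median 0.04), against 2 and 2 without siRCC2 replicate 1 or 3, 0 and 1 without siCtrl replicate 1, and 0 and 2 without siCtrl replicate 3 or siRCC2 replicate 2. HIPK2, a kinase that activates p53, fell from 316 ± 18.2 to 157 ± 23.0 CPM (-1.01 ± 0.12, adjusted p = 0.000663). SIRT1, a deacetylase of p53, fell (-0.72 ± 0.17, adjusted p = 0.0144, and 0.0511 without siCtrl replicate 1). COP1, a ubiquitin ligase for p53, rose (0.34 ± 0.09, adjusted p = 0.0182), a call lost without siCtrl replicate 1 or 3 or siRCC2 replicate 2 (highest adjusted p 0.0755). TP53RK, a kinase of p53, did not pass (0.27 ± 0.11, adjusted p = 0.0777).

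Other arrest targets moved mostly upward: of 7 tested, 5 rose and 2 fell (median 0.40), against 4 and 2 without siCtrl replicate 1 or 2. SFN, the 14-3-3 sigma protein that holds cells in G2, rose from 267 ± 9.20 to 604 ± 78.0 CPM (1.18 ± 0.10, adjusted p = 0.000208). The kinase gene PLK2 (0.40 ± 0.07) and GTSE1 (0.43 ± 0.09), a G2 protein that restrains p53, rose, and E2F7, a repressor of E2F targets, fell (-0.73 ± 0.12). Of 14 death targets, 4 rose and 4 fell (median 0.09), against 3 and 4 without siRCC2 replicate 1 (median 0.046) and 6 and 3 without siRCC2 replicate 3. The counts were 3 and 3 without any 1 siCtrl library or without siRCC2 replicate 2. TNFRSF10B, a death receptor for TRAIL, fell from 273 ± 9.94 to 74.9 ± 1.35 CPM (-1.86 ± 0.06, adjusted p = 2.00e-05). TNFRSF10D, a decoy receptor for the same ligand, rose from 77.8 ± 0.884 to 157 ± 7.77 CPM (1.01 ± 0.07, adjusted p = 9.00e-05). PERP, a membrane protein of cell junctions, rose from 37.8 ± 0.970 to 138 ± 3.34 CPM (1.87 ± 0.07), and the gene of the BH3 protein BID rose (0.63 ± 0.10).

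Of 6 further repair targets 0 rose and 1 fell. FANCC, a Fanconi anaemia protein, fell from 42.7 ± 12.5 to 17.6 ± 0.459 CPM (-1.28 ± 0.22, adjusted p = 0.00346). POLH (0.24 ± 0.08, adjusted p = 0.0549), XPC (0.21 ± 0.08, adjusted p = 0.0805) and PCNA (0.13 ± 0.06, adjusted p = 0.119) did not pass, although no siRCC2 library was below a siCtrl library in these 3 genes. Such separation was common, upward in 26.9% and downward in 28.5% of all tested genes. Among other genes named here it was seen without a call upward in TP53RK and downward in SESN2 and CDKN1C. Some genes of the lists that are not named showed it too. Of 11 metabolic and stress targets, 1 rose and 3 fell (median -0.16). GDF15, a secreted stress hormone, fell from 14.3 ± 1.20 to 2.84 ± 0.422 CPM (-2.32 ± 0.15, adjusted p = 9.00e-05). FDXR, a mitochondrial reductase, fell (-0.62 ± 0.11), as did the glutaminase gene GLS2 (-0.91 ± 0.20). PRKAB2, a subunit of AMP-activated kinase, rose (0.32 ± 0.10, adjusted p = 0.0381) and lost its call in 5 of the 6 fits with 1 library left out (highest adjusted p 0.108).

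**Figure D5:**
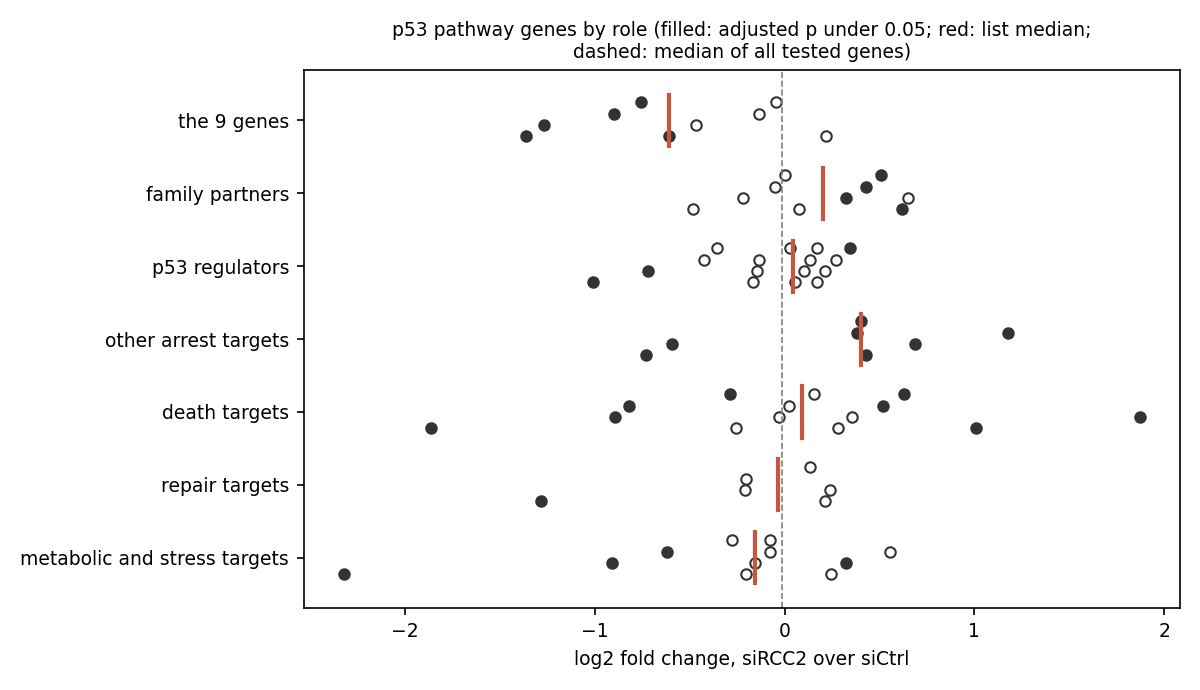
Log2 fold change (x axis) of each tested gene, by its role in the pathway; filled points passed an adjusted p of 0.05, red bars are list medians and the dashed line is the median of all tested genes (-0.02). The 9 genes have a median of -0.61 and other arrest targets one of 0.40. All lists were chosen with earlier results of these data known.

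Genes with the most similar pattern were sought for the 3 members with the smallest p, by Pearson correlation of log2 CPM over the 6 libraries among 10203 genes with a mean of at least 10 CPM. For GADD45A these were EML2 and MLKL (r = 0.999 each), for DDB2 VPS26B (r = 1.000) and GTPBP2 (r = 0.999), and for TP53INP1 CCT8 (r = 0.998) and ADAM23 (r = 0.997). The 6 libraries share 1 group difference, which makes such values common: 216 genes exceeded 0.99 for GADD45A, 230 for DDB2 and 21 for TP53INP1.

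Transcript sequence was compared for a 6-base motif, TCTGGA, which had been noticed in these same data. The motif occurs in 43.5% of the 12773 tested genes whose annotated 3′ UTR spans 100 bases or more. Of those that hold it 30.0% fell, against 18.8% of those that do not, and the median UTR was 2438 bases long in the former and 796 bases in the latter. Since the motif was picked from these data, that difference cannot serve as a test of it. Of the 9 genes 8 hold it, 4 that fell (DDB2, TP53INP1, SESN1, RRM2B) and 4 that did not pass (MDM2, MDM4, CDKN1A, ZMAT3), with 1 to 7 matches each. GADD45A, the gene that fell most, has none in its UTR of 564 bases, the second shortest after DDB2 (391 bases). MDM4 holds 7 matches in 8438 bases. The single match of DDB2 (chr11:47239011-47239040, plus strand) and the first of 3 in SESN1 (chr6:108987502-108987531, minus strand) are shown, since these are the shortest matched UTRs among the genes that fell. Capitals mark the motif.
DDB2 3′ UTR: ttatgttaatgcTCTGGActtgcctccaga
SESN1 3′ UTR: attaaagatgatTCTGGAatgatcagcaga
The part of this motif and of UTR length in the fold changes was not tested.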

How the data were processed

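The 6 DU145 RNA-seq libraries were grouped and numbered by their titles. The authors deposited 1 table of whole-number counts per library. Bowtie2, RSEM, DESeq2 and the build GRCh38 are named, without versions, per the submitters' processing notes; the counts may be rounded RSEM estimates, which share reads among genes of like sequence. Of the 50-base stretches of the longest transcript, 6.19% of MDM2 and at most 1.20% of each other member occur in other genes.

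The test was edgeR 4.0.16 in R 4.3.3 (filterByExpr, TMM scaling, quasi-likelihood F-test, Benjamini-Hochberg adjustment over 16536 genes, threshold 0.05). Standard errors were obtained from F and the fold change. CPM are TMM-scaled, and 1 CPM is 16.5 to 20.2 reads. Ratios used counts plus 0.5. Exon lengths, strands and transcripts came from GENCODE release 29 on GRCh38, where 8 of the 9 members have identical coordinates. No pair of same-group libraries agreed within sampling noise (chi-square over its degrees of freedom was 9.56 or more), so none was merged as a library deposited more than once; this does not show separate cultures.

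The members and gene lists were chosen with earlier results of these data known. The text names RCC2, the members, their family partners, up to 4 genes of each list with the smallest p, and the genes of most similar pattern; the gene overlapping MDM2 and 3 keratin genes were added after their values were seen. Alternatives were other scalings and filters, DESeq2 1.42.0, limma-voom (limma 3.58.1), a replicate block and leaving out each library. On simulated counts, with 194 of 16279 genes changed, a far smaller share than passed in the data, so that rates may differ there, genes changed 1.5-fold were recovered at a rate of 14%, those changed 2-fold at 69.4% and those changed 4-fold at 91.7%; 9 of 134 calls were false.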

Additional observations from a re-analysis of the deposited data

How the results depend on the processing

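With DESeq2 the SESN1 fold change was -0.60 and did not pass (adjusted p = 0.0626); no other scaling, filter or test changed a member's call. With the replicate number as a block, 6295 genes and 5 members passed, against 6911 and 5 without it, and no member's call changed. The edgeR adjusted p of MDM4 was 0.0763 with the block, against 0.332 without it. Correlations of deviations were 0.059, -0.042 and 0.099 for equal numbers and from -0.119 to 0.062 for unequal ones. With so few libraries these values cannot show whether equal numbers were handled together. With 1 library left out, 3 to 7 members passed, 3 to 6 lower and 0 to 1 higher. The log2 fold change then ranged from -0.16 to 0.066 for MDM2 (the latter without siRCC2 replicate 1), from -1.0 to -0.24 for MDM4, from 0.091 to 0.35 for ZMAT3, from -0.72 to -0.51 for SESN1 and from -1.09 to -0.68 for RRM2B. The 3 count ratios kept their sign in every alternative run, but the SESN1 to SESN2 groups were no longer apart with 5 added to the counts. Scaled by the longest transcript, 9 of 18 levels moved by over 1 SD, and DDB2 and RRM2B changed places in siRCC2. The cause of these shifts was not tested. Among the 9 genes SESN1 has the fewest counts, 37 to 81 per library.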
